A study of Drosophila melanogaster with 6 samples.

Results

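Peaks of open chromatin in the heterochromatic part of the Drosophila melanogaster genome were described in sorted midgut progenitors, with and without RNAi against the linker histone H1. A peak was a member if it lay on the Y chromosome, on an unplaced chrUn scaffold or on a _random scaffold. It was also a member if its summit lay next to a centromere, on 2L from 22532279 to the end, on 3L from 23554593 to the end or on 3R from 1 to 3587054 (dm6 build). The positions alone chose the members, and no measured height or q-value entered the choice. Of the 49268 peaks in the 6 deposited lists, 478 (0.970%) were members: 168 on chrUn scaffolds, 71 on _random scaffolds, 6 on Y, 64 in the 2L span, 129 in the 3L span and 40 in the 3R span. Each edge of a span is the outer end of a gene, RpL5 on 2L, AGO3 on 3L and Parp1 on 3R.

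The assay was ATAC-seq, which reads accessible DNA through cuts made by the Tn5 transposase. The H1 RNAi flies had the genotype esgts, UAS-GFP with the transgene UAS-H1 RNAi 1, and the control flies had esgts, UAS-GFP with no RNAi transgene named. Both groups were 3-day-old females kept for 2 days at 18 °C and then for 4 days at 29 °C on poor food, and each group had 3 replicates, A, B and C, each a separate collection of 70 guts. GFP-positive cells, intestinal stem cells and enteroblasts together, were sorted from the pooled guts. The temperature-sensitive escargot driver is active in both of these cell types, 1 RNAi transgene was used, and the knock-down of H1 itself was not checked in these lists. Since the cells were measured in bulk, a change in the mix of cells and a change in accessibility per cell cannot be told apart.

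Pericentric heterochromatin flanks the centromeres, is built largely of satellite repeats and transposon remnants, and is packed with histone H3 methylated at lysine 9, the protein HP1 and linker histone. H1 is known in flies to be needed for normal heterochromatin structure and for silencing of genes and transposons placed in it. A small number of genes lie inside this chromatin and are expressed there, some of them, such as lt, depending on it. Unplaced scaffolds are assembled pieces that could not be anchored to a chromosome arm, many of them repeat-rich, and the Y carries a few very long male fertility genes in repetitive DNA. Females normally carry no Y, so a peak placed on Y in these cells marks reads that aligned best to that sequence.

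The lists held 6564, 9827 and 7261 peaks in H1 RNAi A, B and C and 6142, 10872 and 8602 in control A, B and C. The genome-wide background that the peak caller used, solved from the deposited fold and p-values, was 5.26, 4.83 and 8.28 fragments per base in H1 RNAi A, B and C and 5.04, 20.7 and 10.1 in control A, B and C. This level rises with depth and with the extended fragment length, so the lists may differ in what they could detect, which was not tested. List length did not simply follow the level. H1 RNAi B, at 4.83, held 9827 peaks, whereas H1 RNAi A, at 5.26, held 6564 and control A, at 5.04, held 6142. The read totals were not used here. The progenitor gene esg, the receptor gene N and the progenitor factor gene Sox21a each had a summit within 500 bp of a gene end in all 6 lists, whereas the stem cell ligand gene Delta had one in H1 RNAi B and in 3 of 3 controls. For the enteroendocrine gene pros this held in 1 of 3 H1 RNAi samples and in 2 of 3 controls, and the enterocyte gene nub in none by this rule.

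No compartment held more or fewer called peaks in H1 RNAi than in control samples beyond the spread between replicates. The H1 RNAi means were higher on Y, on both kinds of scaffold and in the 3L and 3R spans, and lower in the 2L span. In each compartment the values of the groups overlapped or touched, and 1 library, H1 RNAi C, held the highest count in every compartment but the 2L span.

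On chrUn scaffolds 21, 28 and 54 peaks were called in H1 RNAi A, B and C, against 23, 28 and 14 in control A, B and C. The means were 34.3 ± 17.4 in H1 RNAi and 21.7 ± 7.09 in control samples (SD, n = 3 each; exact two-sided permutation p = 0.5, adjusted p = 0.9 over the 6 compartments). The difference of 12.7 peaks became 2.83 without H1 RNAi C and 19.3 without H1 RNAi A. H1 RNAi A and B lay within or at the edge of the control range, and H1 RNAi C lay above it. On _random scaffolds there were 6, 9 and 32 peaks in H1 RNAi A, B and C, against 6, 15 and 3 in control A, B and C (exact permutation p = 0.6, adjusted p = 0.9). Without H1 RNAi C the difference on _random scaffolds turned to −0.5 peaks. Of the 71 _random peaks, 69 lay on 30 scaffolds assigned to X and 2 on 1 scaffold assigned to Y.

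In the 3L span there were 22, 22 and 30 peaks in H1 RNAi A, B and C, against 10, 28 and 17 in control A, B and C (24.7 ± 4.62 and 18.3 ± 9.07, SD, n = 3 each; exact permutation p = 0.4, adjusted p = 0.9). The difference of 6.33 peaks became 2.17 without control A, 3.67 without H1 RNAi C and 11.2 without control B. As a share of the list this was 0.335, 0.224 and 0.413% in H1 RNAi A, B and C and 0.163, 0.258 and 0.198% in control A, B and C (exact permutation p = 0.2, adjusted p = 0.72). H1 RNAi B lay inside the control range, and H1 RNAi A and C lay above it. The 2L span held 11, 12 and 7 peaks in H1 RNAi A, B and C and 7, 18 and 9 in control A, B and C (exact permutation p = 0.9, adjusted p = 0.9), the one compartment in which H1 RNAi C did not lead. The 3R span held 4, 3 and 20 peaks in H1 RNAi A, B and C and 1, 6 and 6 in control A, B and C (exact permutation p = 0.8, adjusted p = 0.9), and without H1 RNAi C the difference turned to −0.833 peaks. With 3 samples against 3, no exact permutation p can fall below 0.1.

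**Figure D1:**
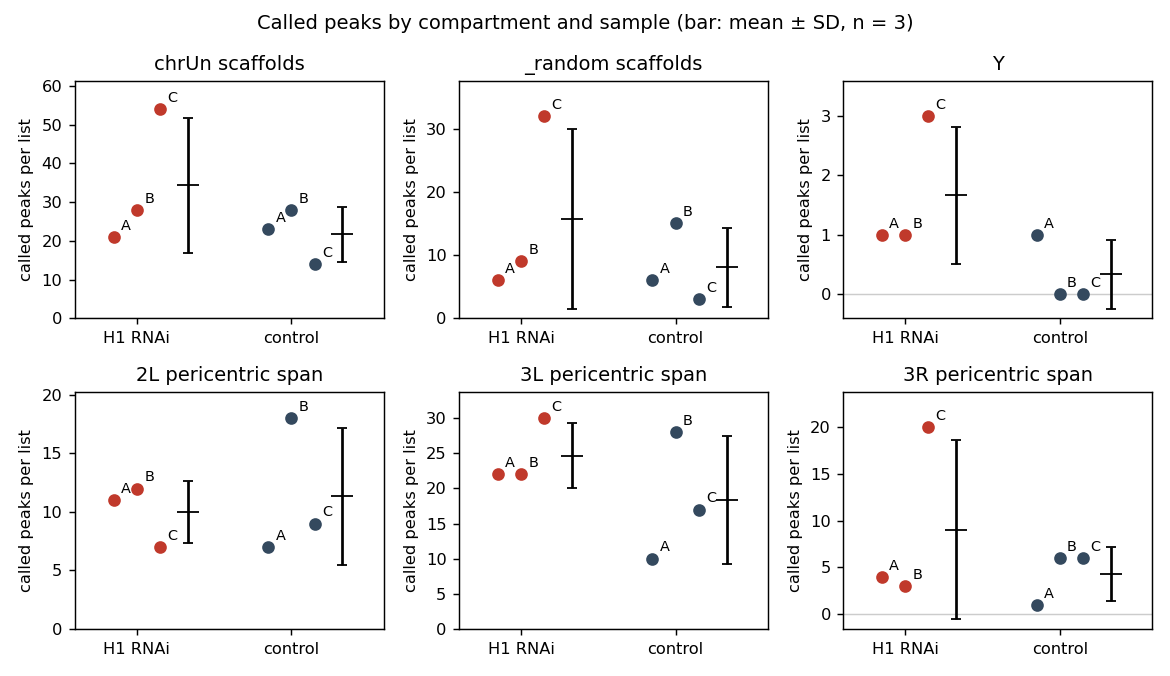
Called peaks per list (y axis) in each of the 6 compartments, for H1 RNAi samples (red, left) and control samples (blue, right); letters give the replicate and bars the mean ± SD of 3 samples. H1 RNAi C, with 54 chrUn, 32 _random and 20 3R peaks, stands above all other samples in those 3 panels, and the other samples of the groups overlap.

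Taken over the 3 spans, the pericentric total was 37, 37 and 57 peaks in H1 RNAi A, B and C and 18, 52 and 32 in control A, B and C, a mean difference of 9.67 (exact permutation p = 0.4). It shrank to 3 peaks without H1 RNAi C (exact permutation p = 0.7). Y and scaffolds together held 28, 38 and 89 peaks in H1 RNAi A, B and C and 30, 43 and 17 in control A, B and C, a mean difference of 21.7 (exact permutation p = 0.5) that was 3 without H1 RNAi C (exact permutation p = 0.9). The covered length did not separate the groups either. Pericentric peaks covered 13.0, 9.35 and 16.4 kb in H1 RNAi A, B and C and 4.06, 23.7 and 15.8 kb in control A, B and C, and the mean difference was −1.64 kb (exact permutation p = 0.9).

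Much of the excess of H1 RNAi C came from places where no other list had a peak. Overlapping peaks of all lists were merged into 11854 regions, of which 182 were members: 61 on 46 chrUn scaffolds, 35 on 31 _random scaffolds, 3 on Y, 20 in the 2L span, 42 in the 3L span and 21 in the 3R span. In H1 RNAi C, 54 of the 182 member regions were called in that sample alone, whereas 1.51% of all regions were called in it alone. The count was 3 in H1 RNAi A (0.515% of all regions) and 5 in H1 RNAi B (3.78% of all regions). It was 3 in control A (0.413% of all regions), 7 in control B (13.1% of all regions) and 0 in control C (3.16% of all regions). Read the other way, members made up 4.92, 1.12 and 30.2% of the regions called in H1 RNAi A, B or C alone and 6.12, 0.450 and 0% of those called in control A, B or C alone.

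The 54 regions lay on chrUn (20), on _random scaffolds (14), in the 3R span (12), in the 3L span (6) and on Y (2), with 0 in the 2L span. They were not the weakest peaks of their list. Ranked by −log10 q within the list, with 100 the strongest, their median percentile was 31.0, against 4.35 for the 70 regions that H1 RNAi C alone called on the rest of arms 2L, 3L and 3R. A −log10 q of at least 10 was reached by 17 of the 54 and by 0 of the 70. With that minimum put on all lists, H1 RNAi C still had 55 peaks on Y and scaffolds, against 13 to 32 in the other 5 samples. With every list cut to its 6142 highest-ranked peaks it had 81, against 13 to 30. These comparisons concern 1 library and carry no test between the groups.

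**Figure D2:**
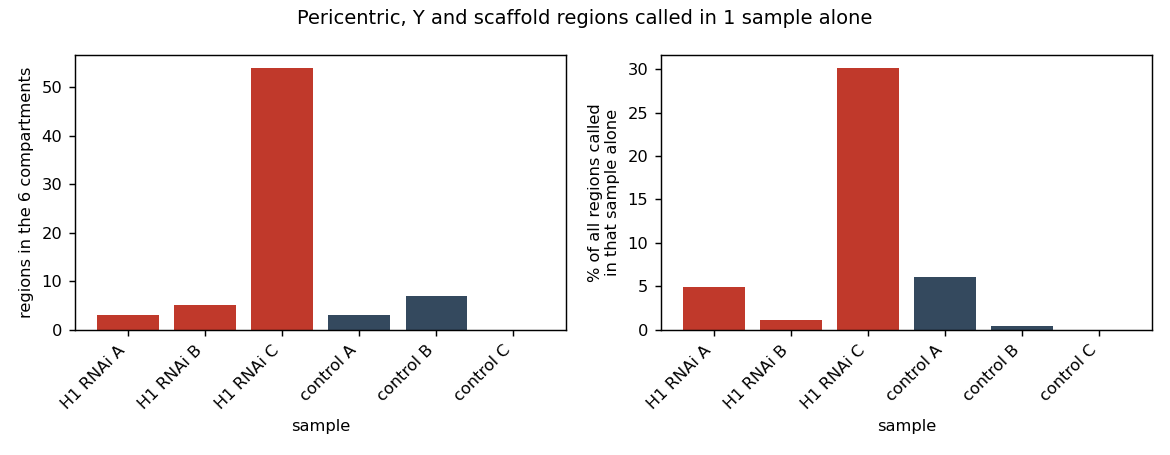
Member regions called in 1 sample alone, as a count (left panel, y axis) and as a percentage of all regions called in that sample alone (right panel, y axis), for the H1 RNAi samples (red) and then the control samples (blue). H1 RNAi C has 54 such regions, 30.2% of its total, and the other 5 samples have 0 to 7.

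Among regions called in 2 to 5 samples, more members were called more often in H1 RNAi than in control samples, and the balance over all regions was the reverse. Of 88 such member regions, 38 were called in more H1 RNAi than control samples, 15 in more control than H1 RNAi samples and 35 in equal numbers. Over all 4822 such regions the counts were 987, 2350 and 1485. The excess lay on chrUn scaffolds (12 more often in H1 RNAi, 1 more often in control, 12 equal), on _random scaffolds (7, 1 and 10) and in the 3L span (12, 7 and 5), whereas the 2L span (4, 4 and 5) and the 3R span (2, 2 and 3) were balanced. Without H1 RNAi C the balance of the members depended on which controls were used. Comparing H1 RNAi A and B with control A and B, 36 member regions were called in more H1 RNAi and 40 in more control samples, and with control B and C the counts were 33 and 39. With control A and C they were 49 and 14. Over all regions the same comparisons gave 1850 and 3133, 839 and 4412, and 2362 and 1825. These counts were made after the lists were seen and depend on list length, and they were given no test.

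Complete separation of the groups was rare. Regions called in 3 of 3 H1 RNAi and 0 of 3 control samples numbered 3 of the 182 members, against 0.186% of all regions. Regions called in 3 of 3 control and 0 of 3 H1 RNAi samples numbered 0 of the 182, against 0.616% of all regions. With so few members the counts rest on single sites, and under a −log10 q of at least 10 the 3 fell to 0. Leaving out H1 RNAi A, control A or control B, and so asking for the remaining samples, gave 7 in each case. That rule asks for fewer samples and is looser for every region. Its share over all regions is not given here, so the rise is not read as a trait of the members.

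A pair of the 3 lay close together in the 3L span, between the genes UQCR-11 and lovit. At 25206437 to 25206808 the authors' fold enrichment was 5.59, 6.52 and 2.48 in H1 RNAi A, B and C, and no control list had a peak. At 25209868 to 25210177 it was 4.31, 4.80 and 2.48 in H1 RNAi A, B and C, again with no control peak. The nearest annotated gene end was that of the pseudogene CR40354, 3200 and 6742 bp away. Both sites stood in the middle of the lists of H1 RNAi A and B (percentiles 59.9 and 62.8, and 38.6 and 40.4) and at percentile 2.27 in H1 RNAi C. The third site lay on the scaffold chrX_DS484140v1_random from 2063 to 2330, with a fold of 3.52, 6.003 and 5.71 in H1 RNAi A, B and C. Fold and q are the peak caller's values against each list's own background and were used here to describe a peak within its list.

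Many of the strongest members were scaffold sites found in every sample. Regions called in all 6 samples made up 22 of the 182 members, against 36.8% of all regions, and they fell on chrUn (11), _random (1), 2L (3), 3L (6) and 3R (1). The 66 peaks of the 11 chrUn regions had a median percentile of 97.5 and a median fold of 14.2, whereas the 25 chrUn regions called in 1 sample had a median percentile of 37.3.

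The scaffold chrUn_CP007120v1 alone carried 26 peaks, 24 of them at 4 sites called in all 6 samples. Copy number and mappability of the scaffolds were not checked, so fold and rank there need not reflect accessibility alone. The site from 45203 to 45986 had a fold of 55.6, 81.5 and 60.4 in H1 RNAi A, B and C and of 52.0, 44.7 and 37.4 in control A, B and C. The site from 73144 to 74136 had a fold of 45.6, 64.9 and 56.7 in H1 RNAi A, B and C and of 37.6, 51.1 and 35.6 in control A, B and C. The lowest percentile of either site in any list was 99.9, and the 6 summits of the site at 45203 fell within 2 bp of each other. Between them, the site from 66465 to 67103 had a fold of 26.8, 31.7 and 27.5 in H1 RNAi A, B and C and of 18.2, 16.4 and 15.7 in control A, B and C, and the site from 71366 to 72097 stood at 8.02 to 13.0 over the 6 samples. The gene table used here names no scaffold for its unplaced genes (6 listed on an unknown chromosome and 1 on the centromeric part of chromosome 3), so no scaffold peak was given a gene.

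Other scaffolds with a site in every sample were chrUn_DS485255v1, from 572 to 963, with a fold of 34.9, 47.5 and 41.6 in H1 RNAi A, B and C and of 41.8, 24.1 and 31.7 in control A, B and C. The one _random site in all 6 samples was on chrX_DS485592v1_random, from 204 to 935, with a fold of 23.3, 22.3 and 28.3 in H1 RNAi A, B and C and of 13.3, 14.9 and 13.8 in control A, B and C. The lowest percentile of this site in any list was 96.8. The site on chrUn_DS484751v1, from 340 to 1311, had a fold of 16.6, 14.9 and 24.3 in H1 RNAi A, B and C and of 10.3, 15.3 and 6.49 in control A, B and C. On chrUn_DS485695v2, from 51 to 456, the fold was 15.2, 35.8 and 19.4 in H1 RNAi A, B and C and 23.5, 6.09 and 7.75 in control A, B and C. Over the 6 lists, the lowest percentile of the DS484751v1 site was 70.0 and that of the DS485695v2 site 79.4, so both stayed in the upper part of every list. The weakest chrUn site in all 6 samples was on chrUn_DS485794v1, from 621 to 910, with a lowest percentile of 6.67. In lists whose backgrounds differ as these do, a fold does not compare heights between samples, and ranks serve for that within a list.

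**Figure D3:**
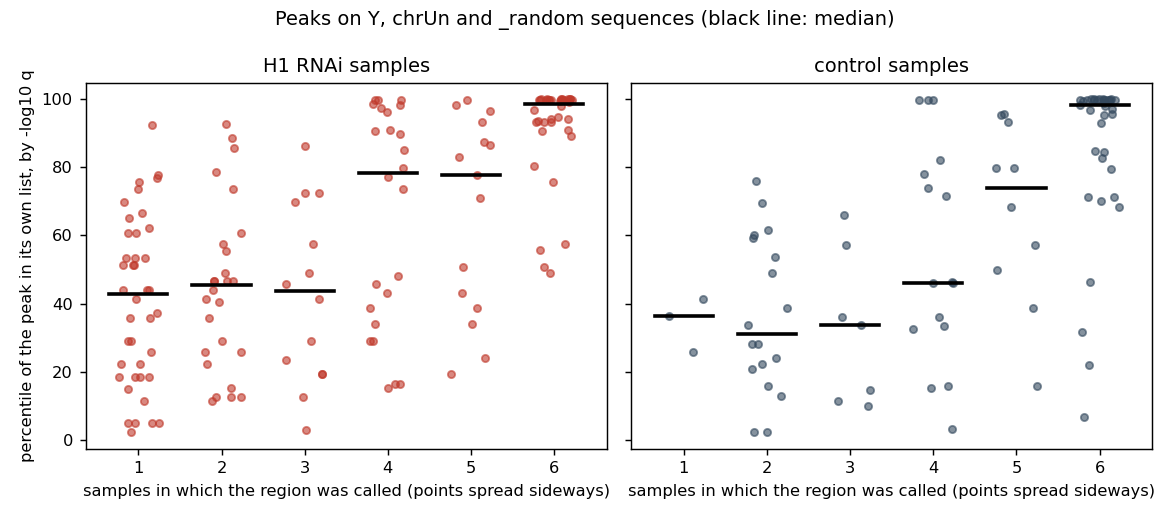
Percentile of each Y, chrUn and _random peak within its own list by −log10 q (y axis), by the number of samples in which its region was called (x axis), for H1 RNAi samples (left) and control samples (right); black lines are medians. Most peaks of regions called in all 6 samples sit near the top of both panels. Regions called in 1 sample are spread from percentile 2.27 to 92.5, most of them in the H1 RNAi panel.

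Y peaks were few. One site, from 124218 to 124512 within the body of the dynein heavy chain gene kl-5, a male fertility gene, was called in H1 RNAi A, B and C with a fold of 15.7, 12.9 and 8.83, and in control A with a fold of 20.0, and had no peak in control B or C. Its 4 summits lay within 4 bp of each other, and its lowest percentile in the lists that held it was 90.6. The other Y peaks were a site in Ppr-Y from 1688241 to 1688363 with a fold of 2.80 and a site from 2247097 to 2247274 with a fold of 3.23, both in H1 RNAi C alone. None of the 24 protein-coding genes annotated on Y had a summit within 500 bp of a gene end in any sample.

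A pair of chrUn sites showed the same strong presence in 4 lists and absence from control B and C. On chrUn_DS485249v1, from 147 to 343, the fold was 23.6, 29.0 and 22.4 in H1 RNAi A, B and C and 26.5 in control A, with a lowest percentile of 99.7. On chrUn_DS485995v1, from 43 to 258, it was 17.3, 20.1 and 11.3 in H1 RNAi A, B and C and 25.5 in control A. Regions called in 3 of 3 H1 RNAi samples and in control A alone of the controls numbered 4 of 182 members (2.20%), 0 of 7080 regions on the rest of the 3 arms and 6 of 11854 in all. The fourth member was a weaker 3L site at 25038442, with a fold of 4.63, 6.52 and 5.39 in H1 RNAi A, B and C and 5.30 in control A. The 3 strong ones were the only regions of that pattern that ranked at or above percentile 90 in all 4 lists. This pattern was picked after the values were seen and was given no test.

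Within the pericentric spans, called peaks were sparse per length and seldom had a local background above the genome-wide level. Mappability was not checked, and the lengths below count all bases of a span, so its part in these results was not tested. The spans cover 9.03 Mb (0.981 Mb on 2L, 4.46 Mb on 3L and 3.59 Mb on 3R) and held 4.10, 4.10 and 6.32 peaks per Mb in H1 RNAi A, B and C and 1.99, 5.76 and 3.55 in control A, B and C. The rest of the same 3 arms held 51.5, 78.2 and 55.9 peaks per Mb in H1 RNAi A, B and C and 48.8, 87.6 and 69.1 in control A, B and C. The spans were lower in 6 of 6 samples, with a mean difference of −60.9 peaks per Mb (exact two-sided sign-flip permutation p = 0.03125, adjusted p = 0.0357 over 8 paired results), which is the smallest p that 6 pairs allow. The 3R span was the sparsest in each of the 6 samples, with 1.12, 0.836 and 5.58 peaks per Mb in H1 RNAi A, B and C and 0.279, 1.67 and 1.67 in control A, B and C.

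Pericentric peaks differed from those of the arms in shape and rank in all 6 samples. Their median width was 311, 189 and 227 bp in H1 RNAi A, B and C and 168, 407 and 440 bp in control A, B and C, against 415, 321 and 331 bp and 361, 510 and 564 bp on the arms of the same samples. The mean difference was −127 bp (6 of 6 samples narrower; exact sign-flip permutation p = 0.03125, adjusted p = 0.0357). Among peaks below percentile 50 of their list, a setting added later, it was −45.7 bp (exact permutation, adjusted p = 0.05). Their median percentile within the list was 15.2 points below that of arm peaks (6 of 6 samples; exact sign-flip permutation p = 0.03125, adjusted p = 0.0357). Peaks on Y and scaffolds, pooled, were also narrower than arm peaks, by 155 bp on average, but ranked 16.5 points higher (each in 6 of 6 samples; exact sign-flip permutation p = 0.03125, adjusted p = 0.0357). The higher rank lay on chrUn, with median percentiles of 89.2, 63.7 and 54.5 in H1 RNAi A, B and C and 84.6, 59.9 and 74.7 in control A, B and C. On _random scaffolds they were 44.7, 45.7 and 52.3 in H1 RNAi A, B and C and 43.7, 50.0 and 68.3 in control A, B and C, against 48.8 to 49.6 on the arms. The 3 Y peaks of H1 RNAi C had a median percentile of 25.8. Scaffold lengths and copy number were not known here, so their part in width and rank was not tested.

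The local background behind each peak separated these compartments from the arms. The peak caller raises the background above its genome-wide level where reads pile up around a peak. On the arms that had happened for 76.3, 77.1 and 83.9% of peaks in H1 RNAi A, B and C and 84.3, 76.0 and 72.2% in control A, B and C. In the pericentric spans it had happened for 0, 0 and 3 peaks in H1 RNAi A, B and C (3 of 57, or 5.26%, in C) and for 0 in each control. The mean difference was −77.4 percentage points (6 of 6 samples; exact sign-flip permutation p = 0.03125, adjusted p = 0.0357). The 3 exceptions all lay in the 3R span. On Y and scaffolds it had happened for 4 of 28, 4 of 38 and 4 of 89 peaks in H1 RNAi A, B and C and for 2 of 30, 2 of 43 and 3 of 17 in control A, B and C, a mean difference from the arms of −68.6 points with the same p. All of these raised peaks lay on chrUn scaffolds, and _random scaffolds and Y had 0. A short sequence leaves little room for reads around a peak. Scaffold lengths were not known here, so their part in this difference was not tested.

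The share of span genes marked by a summit near either end did not differ from that of arm genes beyond the spread between samples. The spans hold 46 protein-coding genes (14 on 2L, 28 on 3L and 4 on 3R), or 5.10 per Mb, against 117 per Mb on the rest of the arms. A summit within 500 bp of either gene end was found for 39.1, 41.3 and 23.9% of them in H1 RNAi A, B and C and for 23.9, 50 and 52.2% in control A, B and C. The share of arm genes was 28.3, 40.5 and 24.1% in H1 RNAi A, B and C and 24.4, 45.1 and 36.7% in control A, B and C. The span share was higher in 4 of 6 samples, by 5.24 points on average (exact sign-flip permutation p = 0.125, added after the values were seen). Counted by peaks, the share of pericentric peaks at a gene end was higher than on the arms in 5 of 6 samples, by 7.79 points on average (exact sign-flip permutation p = 0.281, adjusted p = 0.281), and by 1.04 points with a window of 1000 bp. Peaks per protein-coding gene, in contrast to peaks per Mb, were 0.804, 0.804 and 1.24 in the spans in H1 RNAi A, B and C and 0.391, 1.13 and 0.696 in control A, B and C. On the arms they were 0.439, 0.667 and 0.476 in H1 RNAi A, B and C and 0.416, 0.747 and 0.589 in control A, B and C, so the spans were higher in 5 of 6 samples, by 0.288 on average (exact sign-flip permutation p = 0.0625, added after the values were seen). By the 500 bp rule, no span gene was called in 3 samples of 1 group and 0 of the other. Of 46, 2 were called in more H1 RNAi than control samples, 11 in more control than H1 RNAi samples and 33 in equal numbers. These shares, 4.35% and 23.9%, stand beside 8.50% and 19.3% of the 8744 genes on the rest of the arms, which also had more genes on the control side.

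The gene-end sites were then followed by the function of the gene. RpL5 and RpL15, proteins of the large ribosomal subunit, were open in 6 of 6 samples: the RpL5 site (2L from 22536276 to 22537014) had a fold of 3.99, 4.46 and 3.23 in H1 RNAi A, B and C and of 3.31, 4.16 and 4.96 in control A, B and C. The RpL15 site (3L from 27267118 to 27267824) had a fold of 3.68, 4.97 and 4.52 in H1 RNAi A, B and C and of 3.64, 4.89 and 5.05 in control A, B and C. The mitochondrial ribosomal gene mRpS5 was called in H1 RNAi C and in control B and C, and the initiation factor gene eIF4B in H1 RNAi B and control C.

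The splicing factor gene Spf45 and the mitochondrial import gene Tim23 were called in every sample but H1 RNAi C, and the splicing factor gene Spf30 in H1 RNAi A and B and control B and C. The RNA helicase gene Dbp80 was called in H1 RNAi C and in control B and C. ND-AGGG, a subunit of respiratory complex I, was open in all 6 samples, and UQCR-11, a subunit of complex III, in H1 RNAi A and B and control B and C.

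Genes for transcription and chromatin differed among themselves. MED21, a subunit of the Mediator complex, and scro, a homeobox gene, were open in 6 of 6 samples, and the scro site (3L from 24723602 to 24724234, 242 bp outside the gene) was the strongest of the span genes. Its fold was 9.11, 15.1 and 11.2 in H1 RNAi A, B and C and 8.78, 9.74 and 14.7 in control A, B and C, at percentiles of 84.3 to 97.8. The gene l(3)80Fg had the next strongest site (3L from 26013240 to 26014302), with a fold of 6.39, 8.58 and 6.68 in H1 RNAi A, B and C and of 5.80, 6.14 and 10.2 in control A, B and C. The cohesin gene vtd was called in H1 RNAi B and in control B and C, and Parp1, the poly(ADP-ribose) polymerase gene at the edge of the 3R span, in H1 RNAi A and in control B and C. Set1, a histone H3 lysine 4 methyltransferase gene, and AGO3, an Argonaute gene of the piRNA pathway, had no gene-end summit in any sample.

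Genes for vesicles, signalling and hormones included the classical heterochromatic gene lt, which acts in transport to the lysosome. It was called in H1 RNAi B and in control B and C. The G protein gene cta was called in H1 RNAi A and in control B and C. H1 RNAi B had a peak in the same region, with a fold of 3.77 and its summit just beyond the 500 bp window. The synaptic gene Snap25, the chitinase gene Cht10, the ecdysone synthesis genes nvd and spok, the channel gene Pzl and the myosin gene Myo81F had no gene-end summit in any sample. In all, 7 of the 46 genes were called in 6 samples, 18 in 1 to 5 and 21 in none. H1 RNAi C and control A each missed most of the variable genes, and each also had the lowest share on the arms within its group.

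**Figure D4:**
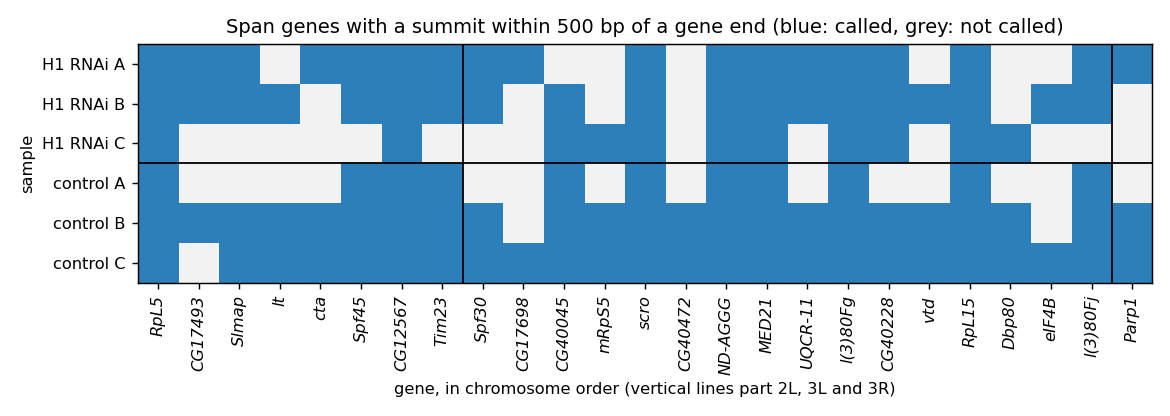
Span genes (x axis, in chromosome order, vertical lines between 2L, 3L and 3R) with a summit within 500 bp of a gene end in at least 1 sample, called (blue) or not called (grey) in each sample (y axis, H1 RNAi above control). 7 genes are called in all 6 rows, and H1 RNAi C and control A show the most grey cells, with 11 of 46 genes called in each.

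Away from gene ends the regions of the 3L span were called more often in H1 RNAi samples and control B than in control A and C. Of its 42 regions, 16 were at a gene end and 26 were not. Of the 26, 20 were called in more H1 RNAi than control samples, 3 in more control than H1 RNAi samples and 3 in equal numbers, whereas of the 16 at gene ends the counts were 1, 7 and 8. On the rest of the 3 arms, 13.3% of the 4091 regions away from gene ends were called in more H1 RNAi and 39.4% in more control samples. At gene ends of the arms these shares were 12.8% and 37.0% of 2989 regions. The 3L gene-end shares, 6.25% and 43.8%, lay near those of the arms. The 26 include 6 called in H1 RNAi C alone, without which the counts were 14, 3 and 3. This split was made after the values were seen and was given no test. By sample, 12, 10 and 20 of the 26 were called in H1 RNAi A, B and C and 3, 13 and 1 in control A, B and C. Control B, whose background exceeded that of every other library, thus lay within the H1 RNAi range, and control A and C lay below it. With H1 RNAi C left out, H1 RNAi A and B exceeded control A and B at 9 of these regions and fell short at 5. Against control B and C the counts were 9 and 4, and against control A and C 14 and 0. Over the 3 spans, peaks away from gene ends numbered 19, 18 and 46 in H1 RNAi A, B and C and 7, 29 and 8 in control A, B and C, a mean difference of 13 (exact permutation p = 0.4), and 3.83 without H1 RNAi C (exact permutation p = 0.9).

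Away from protein-coding gene ends, a pair of span sites on 2L and 3L were nonetheless called in all 6 samples. One lay at an end of the long non-coding RNA gene lncRNA:CR46450 (2L from 23176134 to 23176521), with a fold of 5.11, 7.03 and 3.88 in H1 RNAi A, B and C and of 3.98, 3.60 and 3.88 in control A, B and C. The other lay within CG40160 (3L from 26222807 to 26223290), with a fold of 4.31, 6.003 and 2.69 in H1 RNAi A, B and C and of 2.98, 4.85 and 4.15 in control A, B and C.

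The variable sites came partly in clusters. On 3L, 5 regions lay within 8.54 kb from 27068891 to 27077427, upstream in coordinate of CG40228. Of these, 3, 1 and 4 were called in H1 RNAi A, B and C and 0, 4 and 0 in control A, B and C. On 2L, 5 regions lay within 5.78 kb from 23368677 to 23374459, of which 0, 1 and 3 were called in H1 RNAi A, B and C and 0, 5 and 0 in control A, B and C. These clusters were chosen after their values were seen. In each, control B held at least as many regions as any H1 RNAi sample, and control A and C held none. How often a span region was called went with its place: 0 of 29 regions called in 1 sample were at the end of a protein-coding gene, against 7 of 10 called in all 6. Of the 29, 18 were called in H1 RNAi C alone and 6 in control B alone, so the first count rests largely on 1 library. On the rest of the 3 arms the share at gene ends was 35.1% of regions called in 1 sample and 40.0% of those called in all 6. In between it was 40.8, 50.9, 51.4 and 50.5% of regions called in 2, 3, 4 and 5 samples. The arm share thus also rose with the number of calls, up to 4 samples, and was lower again at 6.

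**Figure D5:**
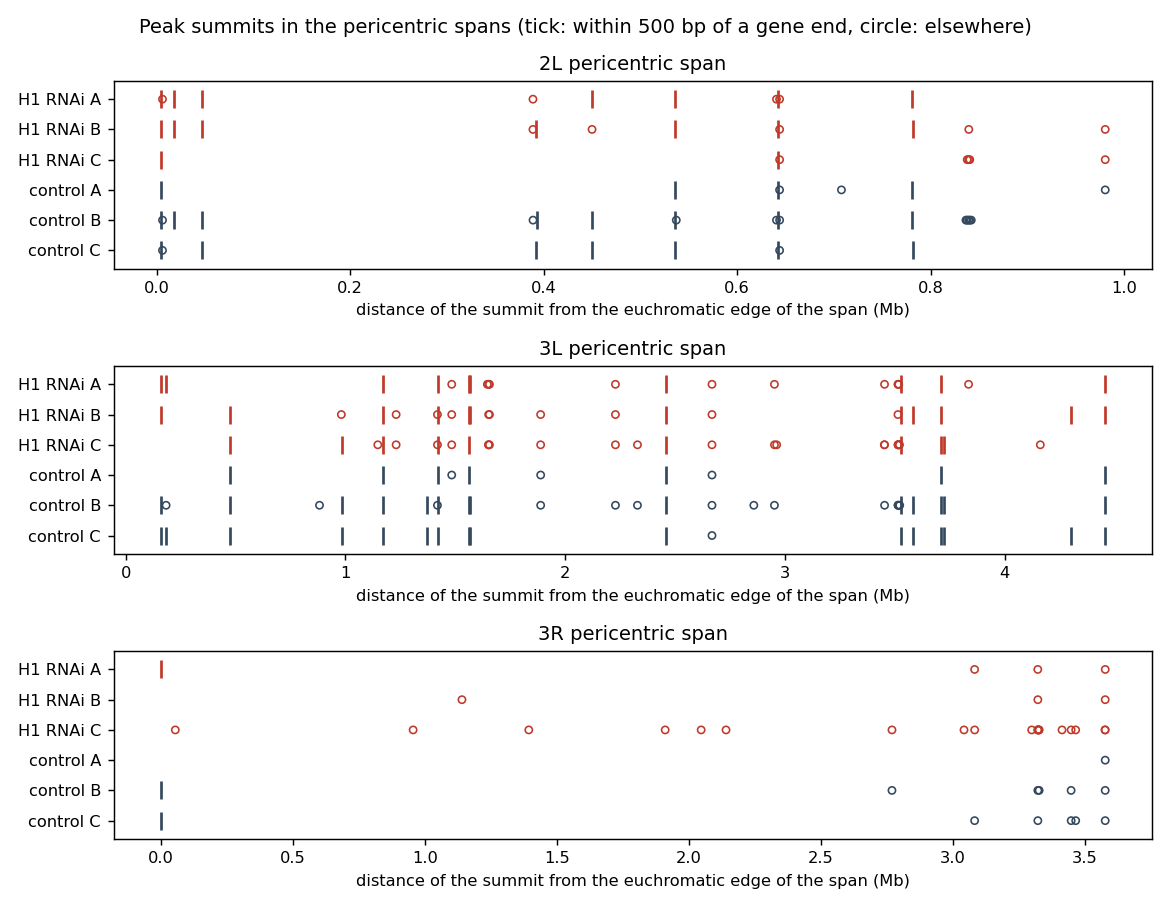
Peak summits along the 2L, 3L and 3R spans by distance from the euchromatic edge (x axis, Mb) in each sample (y axis, H1 RNAi in red above control in blue); ticks mark summits within 500 bp of the end of a protein-coding gene and circles other summits. Ticks recur down the rows, whereas circles are more frequent in the H1 RNAi samples and control B on 3L and in H1 RNAi C on 3R.

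The 3R span opened with a long stretch without protein-coding genes. Of its 21 regions, 12 lay before 567076, where its first protein-coding gene, Myo81F, begins, and 3, 2 and 12 of these were called in H1 RNAi A, B and C and 1, 4 and 5 in control A, B and C. The site from 11304 to 11562, the one 3R region in all 6 samples, had a fold of 4.31, 3.60 and 4.42 in H1 RNAi A, B and C and of 3.48, 3.37 and 3.88 in control A, B and C. The site from 265849 to 267053 was called in 3 of 3 H1 RNAi samples and in control B and C. H1 RNAi C called 19 of the 21 regions, of which 7 were shared with another sample. Of the 12 it called alone, 6 lay before Myo81F, 4 inside Myo81F, 1 inside Pzl and 1 inside Parp1.

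The far end of the 2L sequence held a site that control B and C lacked. From 23512797 to 23512977 it had a fold of 10.8 and 8.83 in H1 RNAi B and C, with no peak in H1 RNAi A, and of 17.6 in control A, with no peak in control B or C. The 3 summits lay within 1 bp of each other.

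The nearest region on either side of each edge was as follows. On 2L the nearest region inside was the RpL5 site, 4462 bp from the edge and called in 3 of 3 H1 RNAi and 3 of 3 control samples, and the nearest outside lay 64059 bp away and was called in 2 and 2. On 3L the nearest region inside, at Spf30, lay 160430 bp from the edge and was called in 2 H1 RNAi and 2 control samples, and the nearest outside lay 215142 bp away and was called in 2 and 1. On 3R the nearest region inside, at Parp1, lay 412 bp from the edge and was called in 1 H1 RNAi and 2 control samples, and the nearest outside lay 36108 bp away and was called in 3 and 2.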

How the data were processed

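The deposited files were 1 narrowPeak list for each of 6 ATAC-seq samples, so peaks were called per sample. Per the submitters' processing notes the build was dm6 and the tools were Bowtie2, MACS2, Picard and Trim Galore. Not given in the sources used here are versions, order, the treatment of multiply aligned reads and any Tn5 shift. Each deposited list gives start, end and summit, an integer score, a fold enrichment over background (a ratio), and the −log10 p-value and −log10 q-value, all the authors' own values. The score was not used. Lists start at a −log10 q of 2.00 to 2.05.

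Peaks overlapping by 1 bp or more were merged into regions. Fragment coverage and background at each summit were solved from the deposited fold and p-value, with a pseudocount of 1, and 99.95 to 100% of peaks gave coverage within 0.02 of a whole number. A peak had a raised local background when it exceeded the list's most frequent background by more than 1%. Genes came from the RefSeq table of the dm6 assembly, which gives no strand or sequence, so gene ends are both ends and no sequence is shown. Arm lengths run to the last annotated gene or peak.

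Group differences were tested by exact permutation of 3 against 3 labels and member-minus-arm differences by exact sign flips over 6 samples, two-sided, adjusted by Benjamini-Hochberg, at a threshold of 0.05. Named sites were up to 8 per compartment, those called in most samples and then of highest rank, with gained and lost regions and a list of heterochromatic genes; other sites were chosen after their values were seen. Members and lists were chosen with earlier results of these data known. Alternatives were minimums of 10 for −log10 q and of 4 for the fold, equal list lengths, summits clustered within 150 bp, edges moved by 250 kb, any overlap with a span in place of the summit, lists without the TE sequence, gene windows of 1000 bp, a block for the replicate letter and omission of each sample in turn. A split at percentile 50 and region counts without H1 RNAi C were added later. Region code was tested on simulated lists. Python 3.11.15, pandas 2.3.3, numpy 2.4.6, scipy 1.17.1 and matplotlib 3.10.9 were used.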

Additional observations from a re-analysis of the deposited data

How the results depend on the processing

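Without any 1 sample, the 7 paired results that passed the threshold kept their direction but had an adjusted p of 0.0625 to 0.0714, since 5 pairs cannot give less than 0.0625 in an exact sign-flip permutation. Their differences from the arms then ranged from −131.5 to −113.4 bp (pericentric width), −167.1 to −140.9 bp (scaffold width), −16.5 to −13.5 and 13.2 to 19.1 points (pericentric and scaffold percentile), −78.5 to −76.1 and −71.4 to −66.4 points (pericentric and scaffold local background) and −63.7 to −56.7 peaks per Mb (density). The pericentric width difference was −45.7 bp and the scaffold one −98 bp among peaks below percentile 50, against −186.5 and −286 bp at a minimum fold of 4. The gene-end share of pericentric peaks differed by 2.98 to 12.8 points without 1 sample, by 1.04 with a window of 1000 bp, by 3.74 with the edges moved and by 12.9 to 14.4 with the 3 other settings, and turned to −1.28 points among peaks below percentile 50, a split chosen after seeing the data.

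Group differences in peak number (H1 RNAi minus control) turned in some compartments. None passed the threshold, which 3 samples against 3 cannot reach. In the 2L span the difference was 0.667 at a minimum fold of 4 and 0.333 with equal list lengths, and without 1 sample it ranged from −3.5 to 2. The 2L share turned to −0.0567 points at a minimum −log10 q of 10, to −0.0138 at a minimum fold of 4 and to −0.00512 with the edge moved 250 kb, and without 1 sample ranged from −0.0188 to 0.0194. The 3L difference was −0.667 at the minimum −log10 q of 10. Without 1 sample the ranges were 2.83 to 19.3 peaks on chrUn scaffolds, 2.17 to 11.2 peaks in the 3L span, −0.833 to 7.67 peaks and −0.00134 to 0.121 points in the 3R span and −0.5 to 12.5 peaks on _random scaffolds, the lowest without H1 RNAi C except in the 3L span. Member regions in all H1 RNAi and no control samples numbered 0 at the minimum −log10 q of 10, 1 at the minimum fold of 4 and 3 to 7 without 1 sample, and the reverse 0 to 1. Regions in all samples numbered 12 and 13 with those minimums. Shares over all regions under these settings are not given here. The cause of these shifts was not tested.

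Correlations of same-letter deviations were small (0.0348, 0.0955 and −0.0504), and whether the letters A, B and C pair the samples was not tested. With the replicate letter as a block the chrUn difference was 12.7 peaks (exact sign-flip permutation p = 1) and the 3L difference 6.33 peaks (exact p = 0.5). No call changed under the block, whose smallest p is 0.25 with 3 pairs. H1 RNAi A and B correlated best with their own letter and H1 RNAi C did not. Read depth was not measured here, and a region without a call in a list need not be closed in that sample.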
